A study of Mus musculus with 8 samples.

Results

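The genes described here are 35 genes of the peroxisome, 13 *Pex* genes that build the organelle and 22 genes for the enzymes and transporters that oxidize lipids in it. They were taken by gene symbol, from a list drawn up with earlier results of these data known, out of the 55385 gene identifiers of the deposited table, and all 35 were among the 14340 genes abundant enough to be tested. Their transcripts were measured by bulk RNA-seq in liver of 4 *Usp39*-HKO mice and 4 control littermates (called WT in the labels), one library per mouse, all male, 5 weeks old and fasted for 16 h. *Usp39* encodes a protein of the spliceosome. In *Usp39*-HKO mice, which are on the C57BL/6J background, both *Usp39* alleles carry *loxP* sites around exon 2 (fl/fl) and Albumin-Cre removes that exon, a driver active in hepatocytes and in their hepatoblast precursors, which also give rise to bile duct cells. Mice are called here control mouse 1 to 4 and *Usp39*-HKO mouse 1 to 4. In bulk liver, fewer hepatocytes and less RNA per hepatocyte cannot be told apart.

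Peroxisomes are small organelles bounded by one membrane that import their enzymes as folded proteins from the cytosol. Peroxins, the products of the *Pex* genes, carry out this import, insert the membrane proteins and drive growth and division of the organelle. In hepatocytes, peroxisomes shorten very long-chain, branched-chain and dicarboxylic fatty acids and bile acid precursors by β-oxidation. They also remove the terminal carbon of phytanic acid by α-oxidation, and break down the hydrogen peroxide that their oxidases release. Fasting and PPARα, a nuclear receptor for fatty acids, are known to raise many of these genes in rodent liver.

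Relative to the typical gene, 9 enzyme genes and 2 *Pex* genes were lower in *Usp39*-HKO livers, among them those of catalase, the oxidases *Acox2* and *Acox3* and the enzymes of double bonds and of α-oxidation. In edgeR's quasi-likelihood test with Benjamini-Hochberg adjustment over all tested genes, 11 of the 35 genes had an adjusted p under 0.05, all of them lower in *Usp39*-HKO livers. These were 9 of the 22 enzyme and transporter genes (40.9%) and 2 of the 13 *Pex* genes (15.4%). Of all tested genes, 22.5% passed in either direction, 11.6% lower and 10.9% higher, so the share of *Pex* genes was close to the background and the share of enzyme genes was above it. None of the 35 genes passed as higher in edgeR or in DESeq2, but DESeq2 gave *Acot3* no adjusted p, so it could not pass there. None had an unadjusted p under 0.05 in edgeR in that direction. By that measure 15 (42.9%) were lower, as were 18% of all tested genes. The median log2 fold change was -0.46 over the enzyme genes, -0.21 over the *Pex* genes and -0.0015 over all tested genes. The difference between the *Pex* genes and the enzymes was not tested, and no test was made of either group as a whole.

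These fold changes are relative to the median gene, and that scale matters here. TMM factors, which edgeR uses to make the bulk of the genes equal between libraries, ranged from 0.912 to 0.94 for control libraries, whereas those of *Usp39*-HKO livers ranged from 1.01 to 1.19. As log2(FPKM + 1), which has no such step, the median gene stood 0.17 higher in *Usp39*-HKO livers. Without TMM factors, 4.9% of all tested genes passed as lower and 24.5% as higher. Under that scaling *Pex6*, *Acox2*, *Scp2*, *Pecr* and *Cat* were still called lower, *Pex19* and *Nudt19* were called higher, the median over the *Pex* genes was 0.0045 and that over the enzyme genes was -0.24. As a plain level, the mean log2 FPKM of the 22 enzyme genes lay between 6.24 and 6.60 in controls and between 6.23 and 6.49 in *Usp39*-HKO livers, so the groups overlapped. The mean log2 FPKM of the 13 *Pex* genes lay between 3.89 and 4.11 in controls and between 3.91 and 4.10 in *Usp39*-HKO livers.

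**Figure D1:**
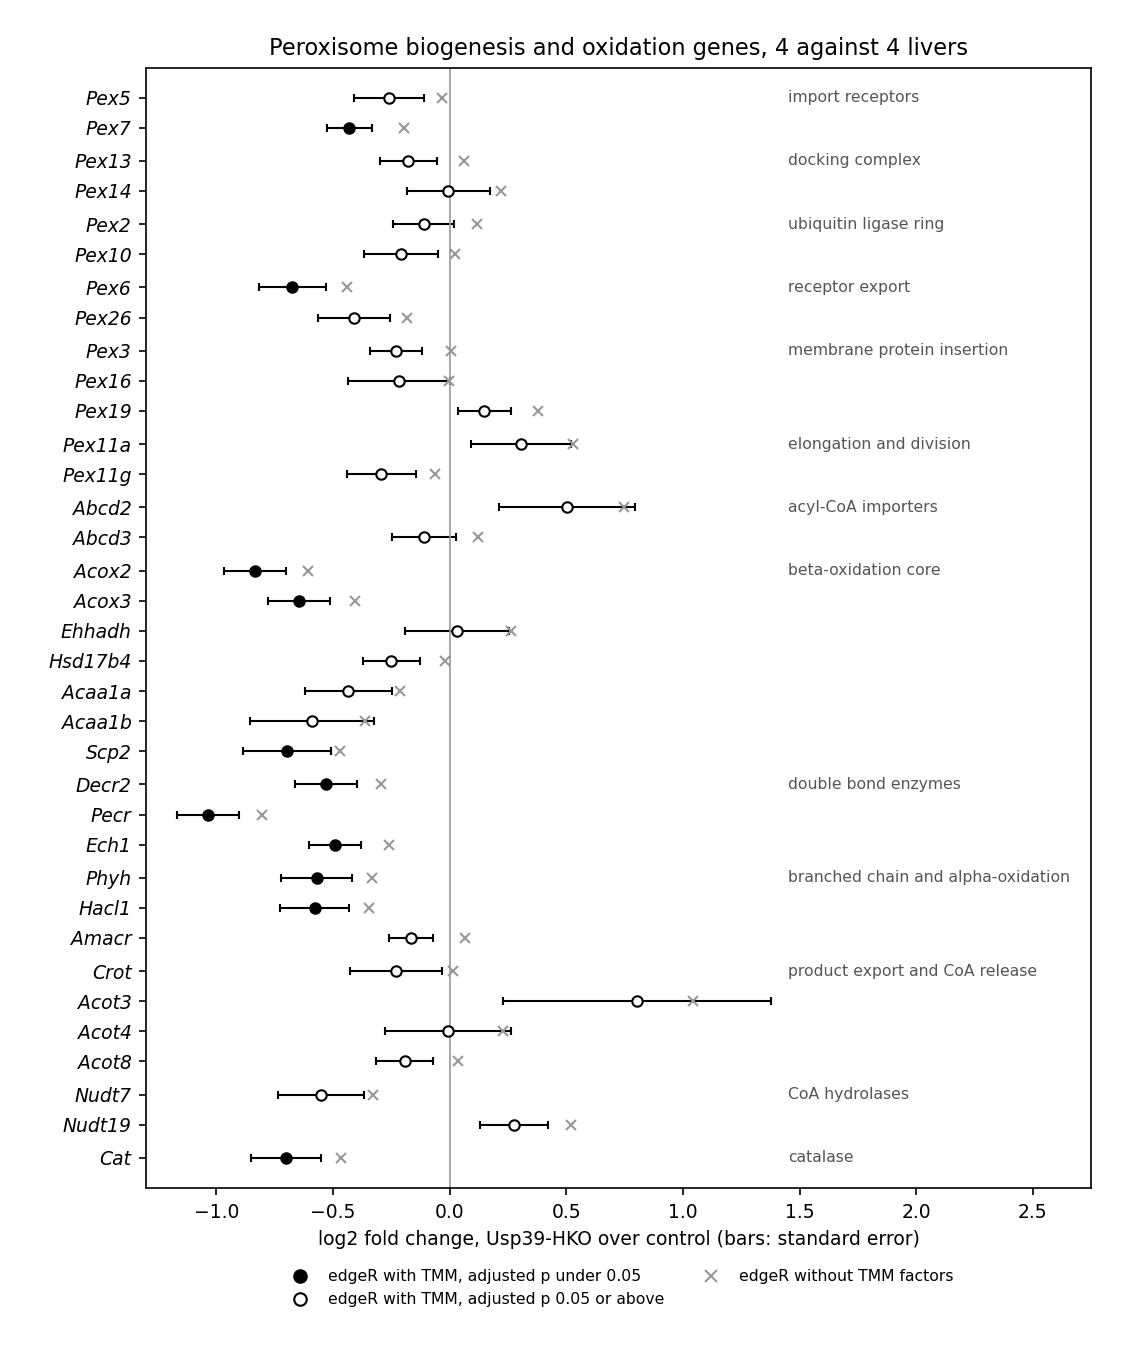
Difference between *Usp39*-HKO and control livers as a log2 fold change for each of the 35 genes, grouped by role, with its standard error (circles, edgeR with TMM factors, filled where the adjusted p was under 0.05) and without TMM factors (grey crosses). The 11 filled circles lie between -1.04 for *Pecr* and -0.43 for *Pex7*, and every cross lies to the right of its circle.

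Most matrix enzymes reach the peroxisome through a short signal that the coding sequence spells out, so the ends of the coding sequences are shown for the enzymes that fell. The commoner signal, PTS1, is the last 3 residues of the protein and is bound by the receptor Pex5. The other, PTS2, is a stretch of 9 residues near the start of the protein and is bound by Pex7. A PTS1-type end (a serine, alanine or cysteine codon, then lysine, arginine or histidine, then leucine or methionine) was found in 12 of the 22 enzyme and transporter genes, in none of the 13 *Pex* genes and in 0.521% of 21482 coding genes. A PTS2-type stretch within the first 50 codons was found in 3 of the 22 genes and in 0.168% of the coding genes. The 4 enzymes with a PTS1-type end that were called lower are printed here with the last 3 codons in capitals, from GENCODE vM21 transcripts on GRCm38, each from chromosome 1, 4, 7 or 17.
Pecr: gaatcttttaagaagaaaGCCAAGCTCtaa
Scp2: cagcttcagccgggcaaaGCTAAGCTGtga
Decr2: gagtttgaatccttctctGCTAAGCTGtag
Ech1: acaaaaagcatcaccttcTCCAAGCTCtga

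Among the enzyme genes that fell, 4 had neither stretch by these patterns and end in another triplet of codons, each with leucine or methionine last. Their last 3 codons are in capitals.
Acox2: ctgatgcaaagctggaaaCCCAAGCTGtga
Acox3: gtagccgacaggctaaagTCCCAGCTGtag
Cat: atggctgcgaagggaaaaGCTAACCTGtaa
Hacl1: tttcactggctcacccgtTCTAACATGtga

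The 3 genes with a PTS2-type stretch are shown by that stretch alone, 9 codons in capitals. It starts at codon 9 in *Phyh*, which was called lower, and at codon 3 in *Acaa1a* and *Acaa1b*.
Phyh: CGGCTGCAGGTCCTTCTGGGACACCTC
Acaa1a: CGGCTGCAGGTAGTGCTGGGCCACCTG
Acaa1b: CGGCTGCAGGTAGTGCTGGGTCACCTG

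By match to these patterns, 4 of the 12 genes with a PTS1-type end were called lower (median log2 fold change -0.24). Also called lower were 1 of the 3 with a PTS2-type stretch (-0.57) and 4 of the 5 with another end (-0.65). None of the 2 membrane transporters was called (0.20, both also with an unadjusted p above 0.05). The fifth gene with another end is *Amacr*, with a log2 fold change of -0.17. Of all tested genes, 11.6% were called lower, so the share of genes with a PTS1-type end was also above the background. These groups are small, and the differences between them were not tested. The patterns are strict, and a gene with another end was not shown to lack a PTS1 signal.

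Of the import receptors, the receptor for PTS2 fell. *Pex7* (ENSMUSG00000020003, chromosome 10 of GRCm38 from 19853900 to 19907689, minus strand) measured 5.92, 6.14, 6.04 and 6.64 FPKM in control mice 1 to 4 and 5.26, 6.05, 4.96 and 5.31 FPKM in *Usp39*-HKO mice 1 to 4. The groups overlapped through *Usp39*-HKO mouse 2, and the other 3 *Usp39*-HKO livers were below every control. Its log2 fold change came to -0.43 ± 0.10 (SE, adjusted p = 0.00944), and without TMM factors it was -0.20 (adjusted p = 0.155). *Pex5*, the receptor for PTS1, measured 46.0 ± 5.95 FPKM in control livers and 44.9 ± 5.87 in *Usp39*-HKO livers (SD, 4 mice per group), a log2 fold change of -0.26 that did not pass (adjusted p = 0.244).

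Of the 2 genes for the export of receptors back to the cytosol, *Pex6* fell. It encodes an ATPase that pulls used receptors out of the membrane, and *Pex26* encodes the membrane protein that anchors it. *Pex6* (ENSMUSG00000002763, chromosome 17 from 46711463 to 46725541, plus strand) measured 24.2, 28.5, 25.3 and 24.3 FPKM in the controls and 15.2, 20.8, 23.1 and 16.1 FPKM in *Usp39*-HKO mice 1 to 4. Every *Usp39*-HKO liver was below every control (exact permutation p = 0.0286, two-sided over the 70 assignments of 8 mice, which is the smallest possible). This gave a log2 fold change of -0.67 ± 0.14 (SE, adjusted p = 0.00762). *Pex26* had a log2 fold change of -0.41 ± 0.15 (SE, adjusted p = 0.077) with overlapping groups. It passed in 2 of the 16 alternatives run, among them that without *Usp39*-HKO mouse 1 (-0.55, adjusted p = 0.0117).

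The other *Pex* genes did not pass. In the docking complex at the membrane, *Pex13* and *Pex14* had log2 fold changes of -0.18 and -0.01 (adjusted p = 0.329 and 0.985). *Pex2* and *Pex10*, of the ring of ubiquitin ligases that marks receptors for export, had -0.11 and -0.21 (adjusted p = 0.582 and 0.376). *Pex10* had the lowest level of all 35 genes, at 2.13 ± 0.255 FPKM in control livers and 2.17 ± 0.158 in *Usp39*-HKO livers (SD, 4 mice per group). No library held fewer than 53 counts of any of the 35 genes.

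Among the 3 genes that bring membrane proteins into peroxisomes, *Pex19* went the other way in FPKM. Pex19 is the chaperone of new membrane proteins, Pex3 its receptor and Pex16 helps to place Pex3. *Pex19* (ENSMUSG00000003464, chromosome 1 from 172126755 to 172136493, plus strand) measured 57.5, 73.7, 55.8 and 66.0 FPKM in the controls and 80.8, 80.4, 84.0 and 84.2 FPKM in *Usp39*-HKO livers. All *Usp39*-HKO values lay above those of the controls (exact permutation p = 0.0286), as was the case for 23.9% of all tested genes. Relative to the median gene its log2 fold change was 0.15 ± 0.11 (SE, adjusted p = 0.386), and without TMM factors it was 0.38 (adjusted p = 0.0265). *Pex3* and *Pex16* had log2 fold changes of -0.23 and -0.21 (adjusted p = 0.16 and 0.522). *Pex16* stood at 104 FPKM in *Usp39*-HKO mouse 1 and between 54.6 and 71.4 in the other 3. Without that mouse it was called lower (-0.48, adjusted p = 0.0408), the only call of *Pex16* in the 16 alternatives.

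The genes for elongation and division of peroxisomes, *Pex11a* and *Pex11g*, had log2 fold changes of 0.31 and -0.29 (adjusted p = 0.335 and 0.183). *Pex11a*, the form that is induced with peroxisome number, measured 43.2, 66.3, 34.0 and 42.4 FPKM in the controls and 74.1, 60.0, 80.6 and 53.3 FPKM in *Usp39*-HKO livers. Only control mouse 2 reached into the range of the *Usp39*-HKO livers. The coding sequences of *Pex11a* and *Pex11g* were 58.3% identical, and 48.7% of the transcript of *Pex11g* is shared with *Gm44775*, so its reads could be assigned to either.

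Of the 22 enzyme and transporter genes, the oxidase genes *Acox2* and *Acox3*, of the first step of β-oxidation, fell. *Acox2*, the oxidase for bile acid intermediates and branched chains (ENSMUSG00000021751, chromosome 14 from 8225511 to 8259353, minus strand), measured 91.8, 85.1, 91.7 and 97.9 FPKM in the controls. It measured 72.2, 54.4, 53.2 and 61.1 FPKM in *Usp39*-HKO livers, all below the controls (exact permutation p = 0.0286). The log2 fold change was -0.83 ± 0.13 (SE, adjusted p = 0.00208), and it had an adjusted p under 0.05 under all 16 alternatives run. *Acox3*, an oxidase for branched-chain fatty acids with 58.7% identity to *Acox2* in the aligned coding sequence, had 3.35, 2.70, 3.40 and 3.32 FPKM in the controls and 1.89, 2.93, 2.24 and 2.57 FPKM in *Usp39*-HKO livers. Its groups overlapped through control mouse 2. The log2 fold change of *Acox3* was -0.65 ± 0.13 (SE, adjusted p = 0.00642), and -0.40 without TMM factors (adjusted p = 0.056).

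The next steps of β-oxidation moved unevenly. *Ehhadh*, which encodes the inducible bifunctional enzyme for straight chains, was the most abundant of the 35 genes at 1296 ± 366 FPKM in control livers and 1554 ± 285 in *Usp39*-HKO livers (SD, 4 mice per group). Its log2 fold change was 0.03 (adjusted p = 0.935). By mean level in controls the next were *Cat* (995 ± 86.9 FPKM), *Acaa1b* (923 ± 317), *Phyh* (911 ± 105) and *Scp2* (889 ± 53.8, SD of 4 mice each). The ranges of these genes over the control mice overlapped, so their order in controls is uncertain. This concerns controls only, and the comparison of genotypes is given for each gene below. *Hsd17b4*, which encodes the bifunctional enzyme for branched chains and bile acid intermediates, had 251 ± 13.7 and 248 ± 20.2 FPKM (SD, 4 mice per group) and a log2 fold change of -0.25 (adjusted p = 0.176).

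The thiolases close each round of β-oxidation. *Scp2* encodes sterol carrier protein X, the thiolase for branched chains, as well as sterol carrier protein 2 (ENSMUSG00000028603, chromosome 4 from 108043839 to 108144998, minus strand). It measured 924, 911, 912 and 809 FPKM in the controls and 566, 745, 784 and 472.99 FPKM in *Usp39*-HKO livers. All *Usp39*-HKO values lay below those of the controls (exact permutation p = 0.0286), with a log2 fold change of -0.70 ± 0.19 (SE, adjusted p = 0.0215). The adjusted p rose to 0.0581 without control mouse 1 and 0.0612 without control mouse 3. Of its transcript, 52.8% is shared with the pseudogene *Scp2-ps2* and *Gm47162*, and the deposited values cannot say which reads came from which.

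The thiolases of straight chains, *Acaa1a* and *Acaa1b*, did not pass, with log2 fold changes of -0.43 and -0.59 (SE 0.19 and 0.27, adjusted p = 0.118 and 0.138). *Acaa1b* measured 922, 1372, 712 and 687 FPKM in the controls and 645, 804, 939 and 480 FPKM in *Usp39*-HKO livers, a spread among controls that exceeded the difference between the means. Their coding sequences were 96.5% identical over 1275 bases. Of the transcript of *Acaa1b*, 62.0% is shared with *Acaa1a* and *Dlec1*, so the split of reads between the thiolases is uncertain. Without *Usp39*-HKO mouse 1, *Acaa1a* was called lower (-0.58, adjusted p = 0.0252), the only call of this gene in the 16 alternatives.

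All 3 enzymes that handle double bonds were called lower with TMM factors, and only *Pecr* also without them. *Pecr*, the peroxisomal trans-2-enoyl-CoA reductase (ENSMUSG00000026189, chromosome 1 from 72259167 to 72284314, minus strand), showed the largest fall of the 35 genes. It measured 87.8, 72.6, 101 and 109 FPKM in the controls and 56.1, 52.7, 51.4 and 51.6 FPKM in *Usp39*-HKO livers, so the *Usp39*-HKO values were tightly grouped below the lowest control (exact permutation p = 0.0286). Its mean FPKM in *Usp39*-HKO livers was 57.2% of that in controls, and its log2 fold change was -1.04 ± 0.13 (SE, adjusted p = 0.000838), with an adjusted p under 0.05 under all 16 alternatives. A gene on the opposite strand, *D230017M19Rik*, covers 11.5% of its exon bases.

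*Ech1* encodes a dienoyl-CoA isomerase found in peroxisomes and mitochondria. It measured 212, 219, 218 and 221 FPKM in the controls and 181, 188, 190 and 167 FPKM in *Usp39*-HKO livers, a small and even difference without overlap (exact permutation p = 0.0286). In edgeR this was a log2 fold change of -0.49 ± 0.11 (SE, adjusted p = 0.0105), and -0.26 without TMM factors (adjusted p = 0.0647). *Decr2*, the peroxisomal 2,4-dienoyl-CoA reductase, had 170, 151, 159 and 164 FPKM in the controls and 115, 164, 125 and 121 FPKM in *Usp39*-HKO livers. Only *Usp39*-HKO mouse 2 lay among the controls. The log2 fold change of *Decr2* was -0.53 ± 0.13 (SE, adjusted p = 0.0153), and -0.30 without TMM factors (adjusted p = 0.0983).

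Of the 3 genes for branched chains and α-oxidation, those of both α-oxidation steps were called lower with TMM factors and not without them. *Phyh* encodes phytanoyl-CoA hydroxylase, the enzyme missing in Refsum disease, and *Hacl1* encodes the lyase that follows it. *Phyh* measured 937, 800, 1043 and 862 FPKM in the controls and 583, 880, 723 and 710 FPKM in *Usp39*-HKO livers, with *Usp39*-HKO mouse 2 again among the controls. The log2 fold change of *Phyh* was -0.57 ± 0.15 (SE, adjusted p = 0.0206), and -0.33 without TMM factors (adjusted p = 0.0989). With TMM factors the adjusted p was 0.0566 without control mouse 1 and 0.0732 without control mouse 3.

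*Hacl1* measured 10.2, 11.5, 10.6 and 10.6 FPKM in the controls and 7.87, 11.3, 6.70 and 7.89 FPKM in *Usp39*-HKO livers. On the log2 scale it changed by -0.58 ± 0.15 (SE, adjusted p = 0.0176), and by -0.34 without TMM factors (adjusted p = 0.101). With TMM factors the adjusted p was 0.0542 without *Usp39*-HKO mouse 4. Of its transcript, 58.3% is shared with *Gm49387*, a gene on the same strand, so its level is uncertain. *Amacr*, the racemase that turns branched chains into the form the oxidases accept, had 78.6 ± 5.34 FPKM in control livers and 82.4 ± 3.79 in *Usp39*-HKO livers (SD, 4 mice per group) and a log2 fold change of -0.17 (adjusted p = 0.241).

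*Cat*, the gene of catalase (ENSMUSG00000027187, chromosome 2 from 103453849 to 103485160, minus strand), measured 1099, 953, 1029 and 901 FPKM in the controls and 624, 859, 740 and 659 FPKM in *Usp39*-HKO livers. The groups did not overlap (exact permutation p = 0.0286). Catalase transcripts changed by -0.70 ± 0.15 (SE, adjusted p = 0.00775), and it passed under all 16 alternatives. Among the enzymes, *Acox2*, *Scp2*, *Pecr*, *Ech1* and *Cat* had every *Usp39*-HKO liver below every control. With *Pex6* these were 6 of the 35 genes, against 4.81% of all tested genes.

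**Figure D2:**
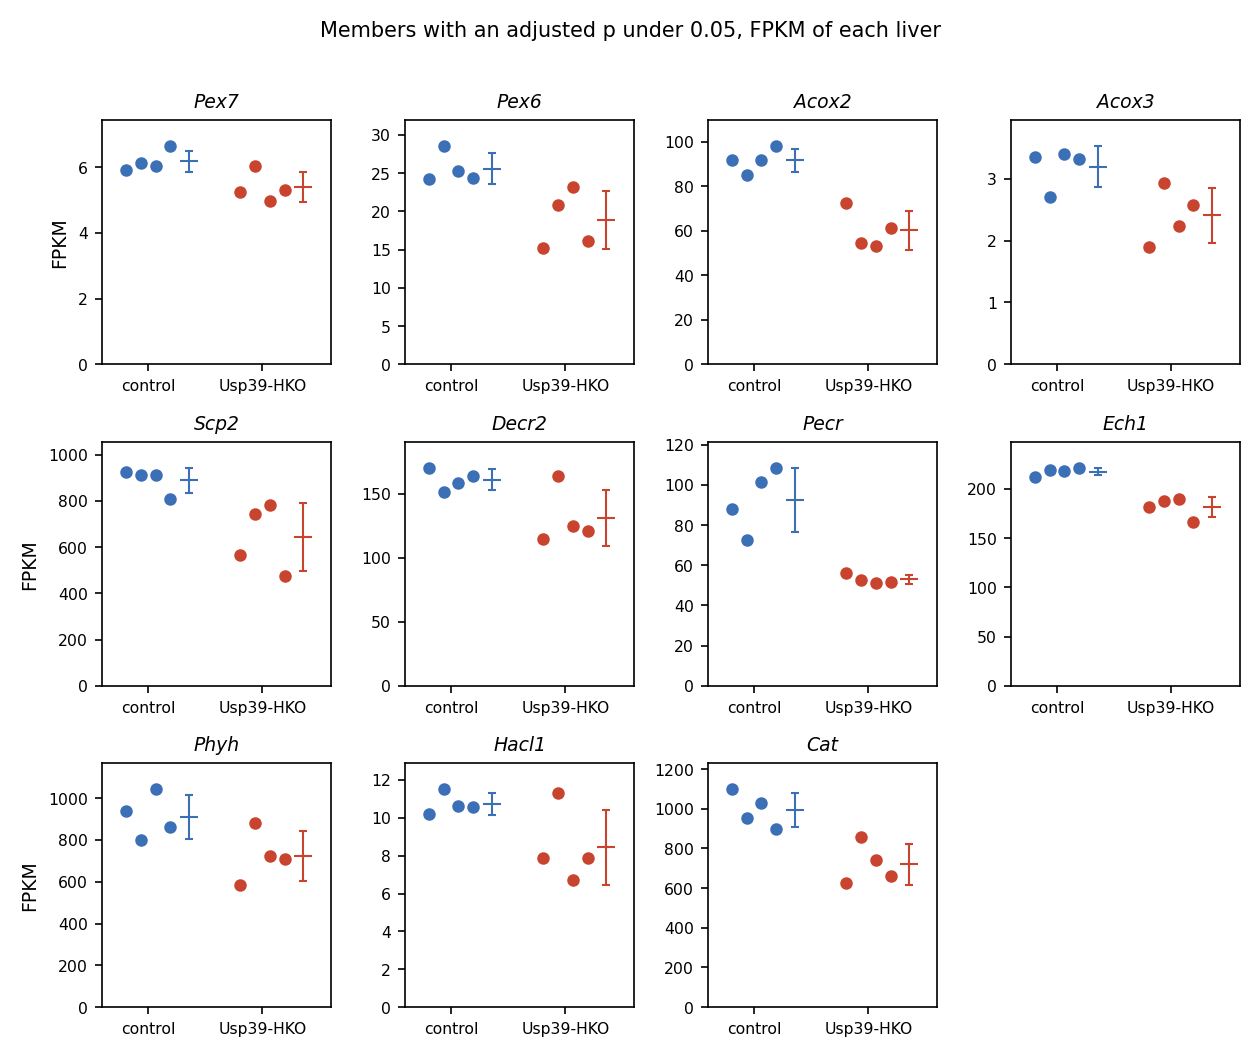
FPKM in each liver (points, control mice in blue and *Usp39*-HKO mice in red, mice 1 to 4 from left to right) of the 11 genes with an adjusted p under 0.05, with the mean and SD beside the points. *Pecr* in *Usp39*-HKO livers sits between 51.4 and 56.1 FPKM, below the lowest control at 72.6, while *Decr2*, *Phyh* and *Hacl1* overlap through *Usp39*-HKO mouse 2.

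*Usp39*-HKO mouse 2 had the highest FPKM of its group for 14 of the 35 genes (40%), and for 19.2% of all tested genes. Without it 11 of the 35 genes were called, and 3066 of the 14340 tested genes, where all 8 mice gave 11 and 3225.

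The genes that release or export the products did not pass. *Crot*, the carnitine octanoyltransferase that readies shortened chains for mitochondria, ranged from 179 to 393 FPKM among *Usp39*-HKO livers and from 268 to 311 among controls (log2 fold change -0.23, adjusted p = 0.446). The thioesterase gene *Acot8* had 16.5 ± 1.59 and 17.0 ± 1.18 FPKM in control livers and *Usp39*-HKO livers (SD, 4 mice per group), with a log2 fold change of -0.19 (adjusted p = 0.288). Of the 2 hydrolases of CoA, *Nudt7* had -0.55 ± 0.18 (SE, adjusted p = 0.0511), just above the threshold. It passed as lower in 3 of the 16 alternatives, among them DESeq2 (-0.54, adjusted p = 0.0275) and that without *Usp39*-HKO mouse 3 (-0.68, adjusted p = 0.0332). *Nudt19* measured 18, 15.6, 17.2 and 20.7 FPKM in the controls and 23.2, 25.7, 18.9 and 34.8 FPKM in *Usp39*-HKO livers. Its log2 fold change was 0.28 ± 0.15 (SE, adjusted p = 0.201), and 40.8% of its transcript is shared with *B230322F03Rik* on the opposite strand.

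Of the 22 enzyme and transporter genes, *Acot3* and *Abcd2* had the largest positive log2 fold changes, and control mouse 2 decided both. *Acot3* encodes a thioesterase for long-chain acyl-CoA (ENSMUSG00000021228, chromosome 12 from 84052144 to 84060402, plus strand). It measured 3.42, 18.1, 1.79 and 2.62 FPKM in control mice 1 to 4 and 13.8, 14.7, 9.02 and 16.2 FPKM in *Usp39*-HKO mice 1 to 4. Control mouse 2 was above all the others, and every *Usp39*-HKO liver was above the 3 other controls. With all 8 mice the log2 fold change was 0.80 ± 0.57 (SE, adjusted p = 0.349), and without control mouse 2 it was 2.12 ± 0.24 (SE, adjusted p = 0.000652). Control mouse 2 was singled out by its values at *Acot3* and *Abcd2* themselves, so the adjusted p without it is no independent support for a rise of either.

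*Abcd2* encodes a transporter of very long-chain acyl-CoA in the peroxisomal membrane (ENSMUSG00000055782, chromosome 15 from 91145871 to 91191799, minus strand). It measured 5.00, 14.1, 5.31 and 5.81 FPKM in the controls and 10.5, 14.3, 10.3 and 15.5 FPKM in *Usp39*-HKO livers. Again only control mouse 2 reached the range of the *Usp39*-HKO livers. The log2 fold change was 0.50 ± 0.29 (SE, adjusted p = 0.244), and without control mouse 2 it was 0.99 ± 0.13 (SE, adjusted p = 0.00146). *Abcd3*, the more abundant of the 2 transporter genes at 137 ± 19.0 FPKM in control livers and 149 ± 9.31 in *Usp39*-HKO livers (SD, 4 mice per group), had a log2 fold change of -0.11 (adjusted p = 0.61).

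*Acot3* lies beside *Acot4*, the gene of a thioesterase for succinyl-CoA and dicarboxylic chains (chromosome 12 from 84038379 to 84048601, plus strand), and the aligned coding sequences were 75.2% identical. Both have a PTS1-type end, shown with the last 3 codons in capitals. Of their transcripts, 21.6% and 18.8% are shared with neighbouring genes, so part of their reads is uncertain.
Acot3: aaaaagaagacaatcccaGCAAAACTGtga
Acot4: acccacagcagagcctccTGTAGACTGtag

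*Acot4* measured 12.4, 25.8, 9.51 and 10.8 FPKM in the controls and 15.2, 21.2, 15.0 and 17.2 FPKM in *Usp39*-HKO livers. Its log2 fold change was -0.01 (adjusted p = 0.986), and without control mouse 2 it was 0.42 (adjusted p = 0.0589). *Pex11a* moved likewise, from 0.31 to 0.53 (adjusted p = 0.0656). Control mouse 2 had the highest FPKM among controls for 16 of the 35 genes (45.7%) and for 32.1% of all tested genes. Without it 11 of the 35 genes were called lower and 2 higher, where 11.6% of all tested genes passed as lower and 11.1% as higher. The 11 were the same genes as with all mice, and the 2 were *Acot3* and *Abcd2*, at which this mouse had been singled out. The labels give no batch or other difference for this mouse.

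**Figure D3:**
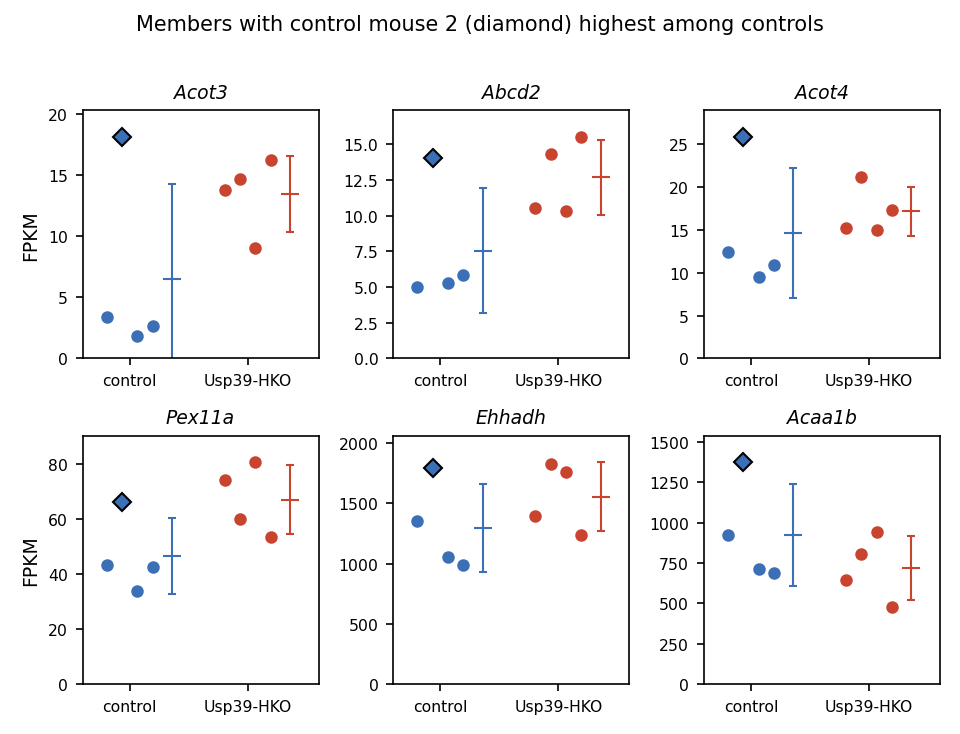
FPKM in each liver of 6 genes for which control mouse 2 (diamond) was the highest of the 4 controls, chosen after their values were seen, with the mean and SD of all 4 mice beside the points (the arm of *Acot3* below 0 is not drawn). For *Acot3* and *Abcd2*, control mouse 2 stood at 18.1 and 14.1 FPKM, where the other controls did not exceed 3.42 and 5.81.

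The genes of the peroxisome outside the 35 were read from lists written by hand. Of 35 other peroxisomal genes that were tested, 13 (37.1%) were called lower and 1 higher, with a median log2 fold change of -0.38. Of all tested genes, 11.6% passed as lower and 10.9% as higher. The largest fall was that of *Ephx2*, which encodes soluble epoxide hydrolase, with 639, 505, 628 and 604 FPKM in the controls and 375, 424, 348 and 339 FPKM in *Usp39*-HKO livers (log2 fold change -0.91, adjusted p = 0.00189). The gene called higher was *Acot5*, a thioesterase gene of low level, with at most 0.215 FPKM in the controls and between 0.581 and 0.881 FPKM in *Usp39*-HKO livers. It reached the minimum of 0.5 FPKM for testing only through the *Usp39*-HKO livers, so it could only be tested because it was higher there, and its call is no support for a rise in the list. Without TMM factors, 5 of these 35 other peroxisomal genes were called lower and 3 higher, against 4.9% and 24.5% of all tested genes.

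*Agxt*, the gene of alanine-glyoxylate aminotransferase, had a log2 fold change of -0.45 and was not called (adjusted p = 0.0885).

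Among 4 tested genes of ether lipid synthesis, which begins in peroxisomes, *Agps* was called higher (0.56, adjusted p = 0.0174). Its product is brought in by the PTS2 receptor. Of 8 tested genes of peroxisome division and turnover, *Nbr1*, the gene of an autophagy receptor for peroxisomes, was called lower (-0.46, adjusted p = 0.0306) and none higher. That is 12.5%, close to the 11.6% of all tested genes. In FPKM, 3 of the 8 had every *Usp39*-HKO liver above every control, as did 23.9% of all tested genes. Of 23 genes of mitochondrial fatty acid oxidation, 3 (13%) were called lower, *Acsl1* most (-0.81, adjusted p = 0.00825), and none higher, with a median of -0.24. This share was also close to the background. Without adjustment 9 of them (39.1%) had a p under 0.05 in edgeR, all lower, against 18% of all tested genes. DESeq2 called 8 (34.8%) lower, against 12.7% of the genes to which it gave an adjusted p, and none higher.

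**Figure D4:**
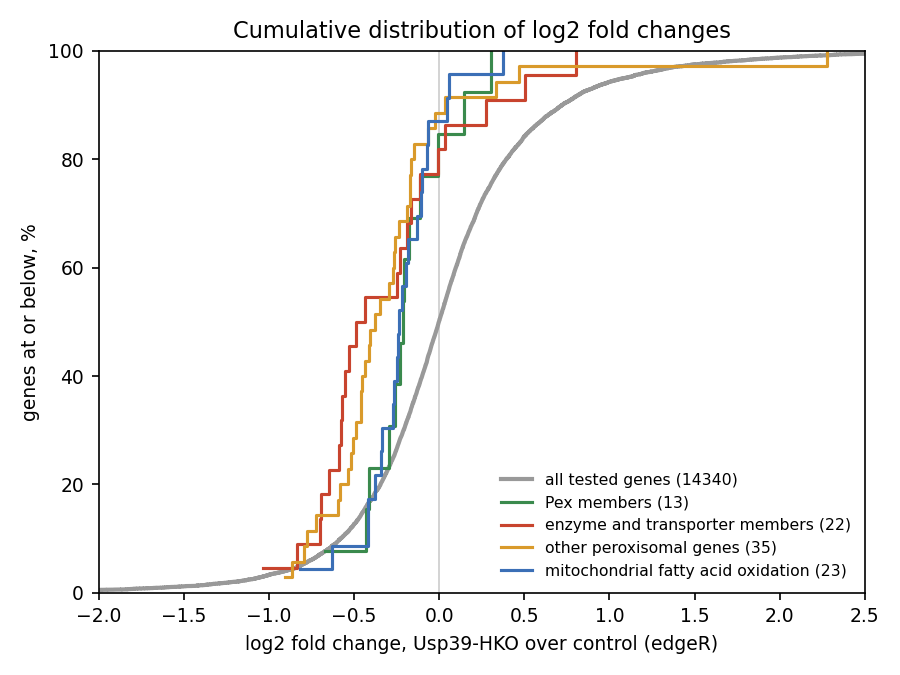
Cumulative share of genes by log2 fold change (edgeR with TMM factors, *Usp39*-HKO over control) for the *Pex* genes, the enzyme and transporter genes, the other peroxisomal genes, genes of mitochondrial fatty acid oxidation and all tested genes. The medians were -0.21, -0.46, -0.38, -0.24 and -0.0015, and without TMM factors 0.0045, -0.24, -0.15, 0.0010 and 0.23.

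Of the regulators, *Ppara*, which encodes PPARα, fell. It measured 69.8, 76.1, 57.5 and 70.5 FPKM in the controls and 42.3, 53.1, 45.2 and 39.8 FPKM in *Usp39*-HKO livers, without overlap. The log2 fold change was -0.83 ± 0.13 (SE, adjusted p = 0.00209). Its partner *Rxra* and the coactivator *Ppargc1a* had -0.30 and -0.47 (adjusted p = 0.179 and 0.324). Other genes known as targets of PPARα went in both directions, 3 lower (15.8%) and 4 higher (21.1%) of 19 tested, against 11.6% and 10.9% of all tested genes. *Cyp4a12a*, *Cyp8b1* and *Cyp4a10* were lower, of which *Cyp4a12a* changed most (-2.92, adjusted p = 0.0248). *Pdk4*, *Acot2*, *Cidec* and *Plin2* were higher, of which *Pdk4*, a kinase gene that restrains pyruvate oxidation, changed most (1.96, adjusted p = 0.00134).

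PPARα binds direct repeats with one base between the repeats, AGGTCANAGGTCA in its ideal form. This motif was searched on both strands in RefSeq promoters on GRCm38.p6, from 250 bases before to 50 bases after each transcript start that RefSeq lists for a gene. With at most 2 mismatches it was found for 3 of the 30 genes with a promoter entry (10%), against 4.40% of 27025 genes. With at most 1 mismatch it was found for none of the 30 and for 0.644% of all genes, and with at most 3 for 7 of the 30 (23.3%), below the 27.3% of all genes. The 30 genes thus stood above all genes at 1 of these settings and below at the other two, and no excess of the motif can be read from them. The 3 matches with 2 mismatches are shown because 2 of them lie at genes that fell, *Acox2* and *Cat*, the other at *Acot4*, with the match in capitals on the minus strand. They lie at chr14:8258810-8258838, chr2:103485337-103485365 and chr12:84038358-84038386. The match of *Acox2* is beside a RefSeq start that lies inside the gene as GENCODE draws it.
Acox2: gctgtcccAGGACAGAGGTGAgtcaagag
Cat: actctcagAGGTCAGAGAACAccagcagg
Acot4: gcacagacCGGCCAAAGGTCAtgcttcgg

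A match is not a binding site, and most of the genes that fell had none in this window.

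*Usp39* itself had 9.35, 10.4, 8.76 and 9.78 FPKM in the controls and 8.37, 8.63, 8.70 and 8.07 FPKM in *Usp39*-HKO livers, a log2 fold change of -0.41 (adjusted p = 0.0212). The count of a whole gene still includes transcripts that lack exon 2, so it is a weak check of the labels. Hepatocyte markers were abundant in all livers, and 3 of 8 (37.5%) were called lower, against 11.6% of all tested genes. All 8 had a log2 fold change below 0, with a median of -0.41, where that of the enzyme genes was -0.46. Without TMM factors 2 were called lower and their median was -0.19. Their summed FPKM was 17501 to 19075 among controls against 15223 to 20518 among *Usp39*-HKO livers. All 4 tested markers of bile duct cells were called higher (26.4 to 28.7 against 64.2 to 286), as were 6 of 8 of stellate cells (64.0 to 75.4 against 107 to 234) and 6 of 7 of macrophages (316 to 428 against 577 to 908). All 4 erythroid markers were called lower (321 to 682 against 143 to 324). Of the tested endothelial markers 1 of 5 was called lower and none higher. None of 3 of T, B and NK cells and none of 2 of neutrophils was called. No marker of these lists was at 0 in all 8 livers. Pancreatic acinar transcripts summed to 643 FPKM in control mouse 4 and at most 4.97 in the other 7 livers. Without that mouse 11 of the 35 genes were called, and 2043 of the 14340 tested genes, against 3225 with all mice. The sums of bile duct, stellate cell and macrophage markers were highest in *Usp39*-HKO mouse 4, without which 10 of the 35 genes and 2094 of all tested genes were called. The part of these cell types in the results was not tested.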

How the data were processed

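Liver RNA of 8 mice was sequenced with paired reads of one library per mouse. The authors trimmed the reads with Trim Galore 0.6.1, aligned them to mm10 with HISAT2 and counted them per gene with featureCounts, and the strand setting and the handling of reads that fit several genes are not given in the sources used here. The authors deposited raw counts without normalization and FPKM, which scale each count to exon length and to the total of the library. The deposited FPKM were recovered from counts, lengths and totals for all values. Columns of the authors' DESeq2 comparison (mean signal, fold change, standard error, statistic and p-values) were not used. Of 55699 entries, 314 repeat a gene identifier and were read once. Library totals ranged from 8589636 to 10418450 counts, and the chi-square per degree of freedom between libraries of a group was 7.02 to 36.4, well beyond counting error. The labels give no batch, and nothing beyond the separate mouse numbers describes how replicates were handled.

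The 14340 genes that reached 0.5 FPKM in 4 or more mice were tested with edgeR 4.0.16, quasi-likelihood, TMM factors, the 2 genotypes and no covariate, and Benjamini-Hochberg adjustment covered all of them. A called gene had an adjusted p under 0.05. Standard errors were the fold change divided by the root of F. Levels are FPKM with SD between mice, and single genes were compared with two-sided exact permutation tests. The analysis was first tested on simulated counts for 14340 genes, 4 against 4. There edgeR called 12 of 50 genes raised 1.5-fold, 42 of 50 raised 2-fold and 50 of 50 raised 4-fold. It called 49 of 50 lowered to 0.25-fold, with 8 false calls over all genes. A change of 1.5-fold or less that was not called may thus still be present. Smaller falls were not simulated. The simulation changed a far smaller share of genes than was called here and did not shift the bulk of the genes, so its rates may not carry over. Alternatives were DESeq2 1.42.0, limma 3.58.1 on log2(FPKM + 1), log2(FPKM + 0.1) and log2(TPM + 1), other scaling and filters, and leaving out each mouse.

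The 35 genes and the gene lists were chosen with earlier results of these data known. Named beside the 35 genes were *Usp39*, *Ppara*, *Rxra*, *Ppargc1a* and *Agxt* and, from each list, the called genes with the largest rise and fall. The other called PPARα targets were named after their values were seen, and some further genes of the lists are not reported here by name. Of the listed symbols 2 (*Peds1* and *Marchf5*) matched no entry. Coordinates, exons and coding sequences are from GENCODE vM21 (GRCm38), which holds 55144 of the identifiers. Sequence shared between genes was found with BLAST+ 2.17.0+ as matches of 150 bases or more with 97% identity or more. Coding ends were read from 1 transcript per gene, and the stretch of *Hsd17b4* is not shown.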

Additional observations from a re-analysis of the deposited data

Results flagged for a closer look

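In groups of 4 mice, a value was singled out where its gap to the nearest other mouse was larger, relative to the range of the group, than Dixon's critical value. Over 84 groups (the 35 genes and 7 others, in 2 genotypes) 6 values met this, and chance gives about 1 in 20 groups. Control mouse 2 held 4 of them. It was the highest control for *Acot3* (18.1 FPKM, next 3.42), *Abcd2* (14.1 FPKM, next 5.81) and *Pex14* (9.38 FPKM, next 6.64), and the lowest for *Acox3* (2.70 FPKM, next 3.32). Control mouse 4 was the lowest control for *Scp2* (809 FPKM, next 911). *Usp39*-HKO mouse 4 was the lowest of its group for *Acot8* (15.2 FPKM, next 17.4).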

How the results depend on the processing

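Over the 16 alternatives run, none of the 35 genes that was called with TMM factors turned its direction. Called in every alternative were *Acox2*, *Pecr* and *Cat*. Of the 35 genes, 11 were called, and 7 in edgeR without TMM factors, which changes the scaling alone. Limma, which changes both the test and the scaling, called 6 on log2(FPKM + 1) or log2(FPKM + 0.1) and 4 on log2(TPM + 1). Of all 14340 tested genes, edgeR called 3225 with TMM factors and 4211 without, and limma called 3668, 3687 and 3388 in the same order. The count over all genes thus rose under these settings while that of the 35 genes fell. The enzyme genes called lower were 9, against 4, 4, 4 and 3 under those settings, and 1 enzyme gene (*Nudt19*) was called higher without TMM factors. In limma on log2(TPM + 1) 1 *Pex* gene was called. Without TMM factors 10 genes that were not called changed sign. Median-ratio size factors gave 11 called genes of the 35 and 3206 of all tested genes. DESeq2 gave 12 of the 35 and 3484 of the 14050 genes with an adjusted p. The call of *Pex19* as higher needed a setting without TMM factors. When a mean FPKM of 5 or more was required, 1595 genes were called in all, of fewer genes tested, against 3225.

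With one mouse left out in turn, the genes called in all were between 1931 (without control mouse 3) and 3510, and those without control mouse 4 or *Usp39*-HKO mouse 4 were 2043 and 2094. Of the 35 genes between 9 and 14 were called, of the *Pex* genes between 2 and 4 (4 without *Usp39*-HKO mouse 1), of the enzyme genes between 7 and 10 lower and between 0 and 2 higher (2 without control mouse 2). Among the other 50 tested peroxisome genes 16 were called, and between 9 (without control mouse 1 or *Usp39*-HKO mouse 4) and 19 with one mouse left out. The mice are littermates, but the labels give no litter, so no pairing or litter effect could be included. Depth limits the low genes, with as few as 53 counts in a library, and 4 mice per group limit the precision.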
